A study of Peromyscus polionotus with 11 samples.

Results

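Otp, Nkx2-1, Sim1, Hmx2, Hmx3, Zic1 and Zic2 encode transcription factors that pattern the embryonic forebrain and whose messages persist in groups of adult neurons. They were followed here through all 8 probe sets that carry one of these symbols alone, 2 for Sim1 and 1 for each of the other 6 genes, among 22626 tested probe sets. Total RNA of small tissue punches from oldfield mice (Peromyscus polionotus) was labelled with biotin and measured on 11 arrays. The bed nucleus of the stria terminalis (BNST in the plots) gave 2 samples from short-day mice, numbered 4 and 5, and 3 from long-day mice, numbered 1 to 3. The medial preoptic area (MPOA in the plots) gave 3 samples from short-day mice, numbered 4 to 6, and 3 from long-day mice, numbered 1 to 3. The series describes the samples of a group as independent, and the sources used here give neither the age and sex of the mice nor the hours of light nor whether a punch was pooled. The p-values thus reflect how far these samples spread, whatever part of that spread is technical.

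As background, OTP and SIM1 are a homeodomain and a basic helix-loop-helix PAS factor that in the house mouse are needed for the neuroendocrine neurons of the paraventricular, supraoptic and anterior periventricular nuclei, which make vasopressin, oxytocin, corticotropin-releasing hormone, thyrotropin-releasing hormone and somatostatin. NKX2-1 is a homeodomain factor that specifies the ventral hypothalamus, the preoptic area and the medial ganglionic eminence, where it acts upstream of the LIM factors LHX6 and LHX8. HMX2 and HMX3 are related homeodomain factors of the inner ear and the hypothalamus, and in the house mouse they are needed for neurons that make growth hormone-releasing hormone. ZIC1 and ZIC2 are zinc finger proteins related to the GLI effectors of the Hedgehog pathway and are found in midline and dorsal territories, among them the septum, parts of the thalamus, the cerebellum and the meninges.

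Each value is the linear intensity of a probe set designed for the house mouse, so that mismatches to the oldfield mouse lower some of them by an unknown amount. No level of one member was set against that of another member, except by its place against the array median, which was 19 on each of the 11 arrays. The sums over marker genes below do add intensities of different probe sets. The brightest genes weigh most in them, and the unknown mismatches enter them. On the first principal component, with 23.2% of the variance, the short-day medial preoptic array 6 lay at -31.2 and the other arrays between -6.63 and 25.4. The summed intensity of 22 hypothalamic and preoptic marker genes was 2522 to 3197 on the bed nucleus arrays and 3563 to 4657 on the medial preoptic arrays. Most of this sum was the imprinted gene Ndn, without which it was 772 to 942 on the bed nucleus arrays and 936 to 1108 on the medial preoptic arrays. That of 10 striatal markers was 3133 to 3980 on the bed nucleus arrays and 1714 to 3052 on the medial preoptic arrays, mostly from the transcription factor gene Foxp1; without it the sums were 431 to 721 on the bed nucleus arrays and 277 to 437 on the medial preoptic arrays.

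Zic1, Nkx2-1 and Hmx2 were above the array median on 11 of 11 arrays and Otp on 10 of 11. Zic1 had the widest spread of the 8 probe sets, with intensities of 168 to 975, a 5.8-fold range and a coefficient of variation of 44.9%. Nkx2-1 varied least, between 61 and 81, a 1.33-fold range with a coefficient of variation of 9.28%. The second Sim1 probe set (1449967_at) exceeded 19 on 5 arrays. The first Sim1 probe set (1420736_at, 8 to 14), Hmx3 (11 to 15) and Zic2 (11 to 18) did not exceed it on any array, so that little can be read from their differences. Of the 8 probe sets, those of Otp, Nkx2-1, Hmx2 and Zic1 would pass a filter at 19.2, the median of all probe set means.

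**Figure D1:**
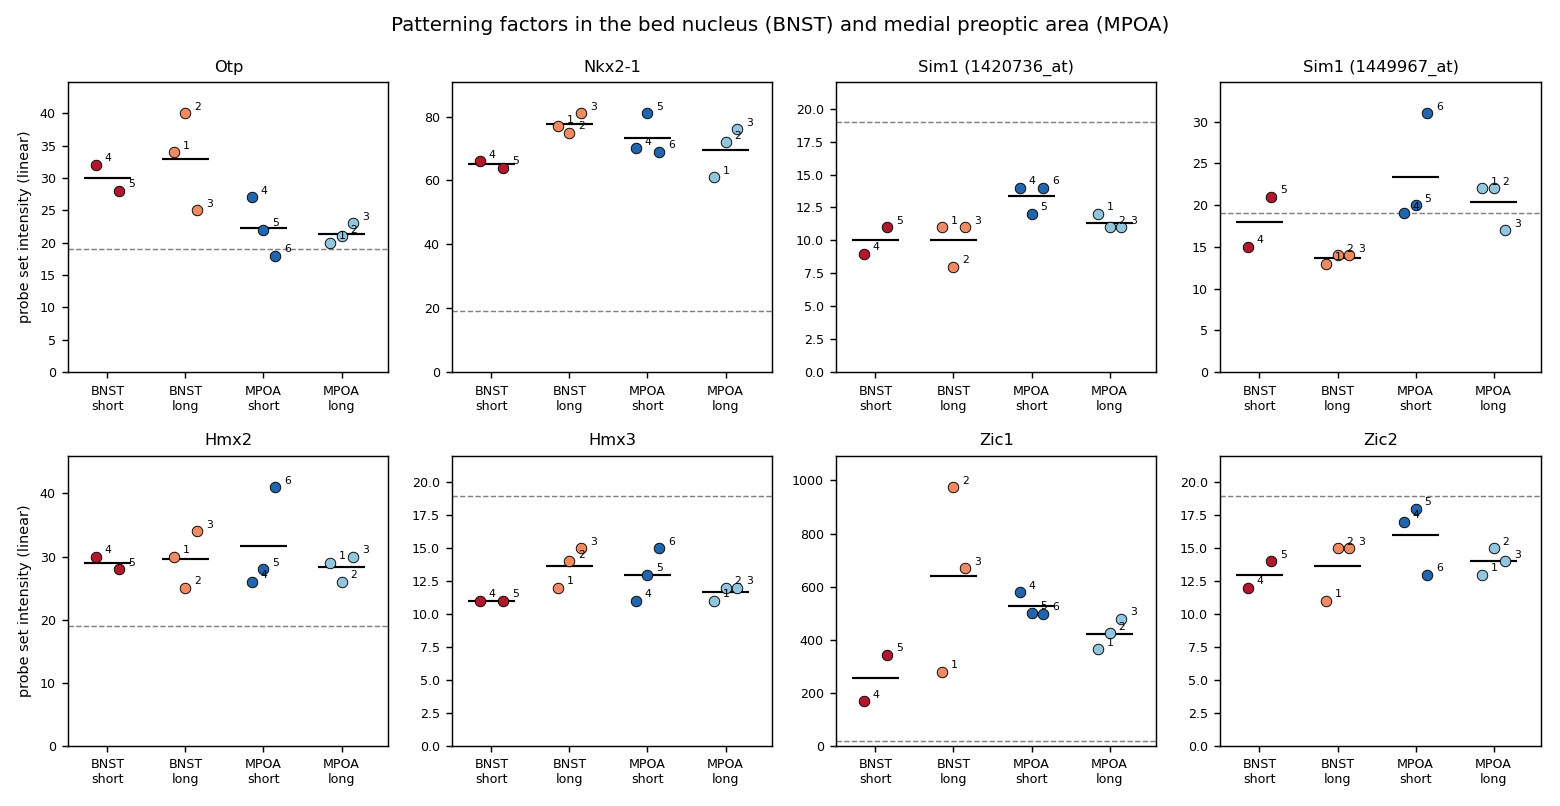
Probe set intensity (linear scale, vertical axis from 0) of the 8 probe sets on every array. Points are arrays with their sample numbers, short bars are group means, and the dashed line is the array median of 19. Otp lies higher in the bed nucleus with some overlap, and Zic1 spans 168 to 975 within the bed nucleus.

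The first comparison sets the bed nucleus against the medial preoptic area, averaged over day lengths. Of the 8 probe sets, Otp was higher in the bed nucleus and the other 7 did not pass (limma, adjusted p under 0.05). Of all probe sets, 233 passed, or 1.03%, with 105 higher and 128 lower, and 1 of 8 rests on a single gene. The median difference of the 8 was -0.09 on the log2 scale, with 1 above 0 and 7 below, and the median of all probe sets was 0, with 50.1% above. Of the 7 below, Nkx2-1 and Hmx3 were at 0.00 after rounding, and Sim1 entered with both its probe sets. With each array left out in turn, 1 to 4 of the 8 were above 0. In none of the 8 were the arrays of the nuclei free of overlap, which held for 333 of all probe sets (1.47%).

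Otp, the homeodomain factor of the neuroendocrine lineage, had intensities of 32 and 28 in the short-day bed nucleus and 34, 40 and 25 in the long-day bed nucleus. In the medial preoptic area Otp had 27, 22 and 18 in short days and 20, 21 and 23 in long days. All 5 bed nucleus arrays were above 5 of the 6 medial preoptic arrays, and the sets overlapped only because the short-day preoptic array 4, at 27, exceeded the long-day bed nucleus array 3, at 25. The mean was 31.8 ± 5.76 in the bed nucleus (SD, n = 5) and 21.8 ± 3.06 in the medial preoptic area (SD, n = 6). The preoptic values lay close to the array median of 19, where a step of 1 unit is coarse. The log2 difference was 0.52 ± 0.13 (SE, 1.44-fold, 95% interval 0.26 to 0.79, adjusted p = 0.0487, limma). In punches of whole tissue, more cells of a type and more RNA per cell cannot be told apart.

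The direction of the Otp difference was the same within each day length, at 0.44 ± 0.19 in short days (adjusted p = 0.409) and 0.61 ± 0.17 in long days (adjusted p = 0.19). Neither passed alone; over all probe sets 80 passed between the nuclei in short days (0.354%) and 29 in long days (0.128%), none of them among the 8. The Otp call lay close to the threshold and depended on single arrays. It held without the short-day preoptic array 4 (adjusted p = 0.0316) or without the long-day bed nucleus array 3 (adjusted p = 0.0155) and was lost without any 1 of the other 9 arrays (adjusted p = 0.0735 to 0.207). Beside this difference, 17 of 22 hypothalamic and preoptic markers were below 0 and 4 of them passed as lower in the bed nucleus (median -0.10), while 9 of 10 striatal markers were above 0 and 5 passed as higher (median 0.57). Their part in the Otp difference was not tested.

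Sim1, the partner of Otp in the same lineage, had differences in the other direction on both probe sets, and neither passed. The probe set 1449967_at had intensities of 15 and 21 in the short-day bed nucleus and 13, 14 and 14 in the long-day bed nucleus, against 19, 20 and 31 in the short-day and 22, 22 and 17 in the long-day medial preoptic area. The bed nucleus arrays were the lower ones apart from the short-day array 5, which at 21 lay among the preoptic arrays. The log2 difference was -0.46 ± 0.13 (95% interval -0.73 to -0.19, adjusted p = 0.109), and it was -0.36 in short days and -0.56 in long days. Without the short-day preoptic array 6, the highest at 31, it was -0.35 (adjusted p = 0.169). The probe set 1420736_at had 8 to 11 in the bed nucleus and 11 to 14 in the medial preoptic area, a difference of -0.31 ± 0.11 (adjusted p = 0.218) at intensities below the array median.

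Nkx2-1, the ventral forebrain factor, had almost the same mean level in both nuclei. Its intensities were 66 and 64 in the short-day and 77, 75 and 81 in the long-day bed nucleus, against 70, 81 and 69 in the short-day and 61, 72 and 76 in the long-day medial preoptic area. The nuclei overlapped over nearly the whole range, with means of 72.6 ± 7.3 in the bed nucleus (SD, n = 5) and 71.5 ± 6.77 in the medial preoptic area (SD, n = 6). The log2 difference was 0.00 ± 0.10, and its 95% interval of -0.20 to 0.20 sets the bound on a difference that these arrays leave (adjusted p = 0.995). This is an average of opposite signs, -0.17 ± 0.14 in short days (limma, adjusted p = 0.745) and 0.16 ± 0.13 in long days (adjusted p = 0.691).

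The related factors Hmx2 and Hmx3 gave similarly narrow intervals around 0. Hmx2 had 30 and 28 in the short-day and 30, 25 and 34 in the long-day bed nucleus, against 26, 28 and 41 in the short-day and 29, 26 and 30 in the long-day medial preoptic area. Apart from the short-day preoptic array 6, at 41, all arrays lay between 25 and 34. The log2 difference of Hmx2 was -0.02 ± 0.12 (95% interval -0.27 to 0.23, adjusted p = 0.969). Hmx3 had 11 to 15 in either nucleus and a difference of 0.00 ± 0.10 (95% interval -0.22 to 0.21). It lay below the array median throughout, where a narrow interval says little. By day length the Hmx3 difference was -0.23 ± 0.15 in short days (limma, adjusted p = 0.657) and 0.22 ± 0.14 in long days (adjusted p = 0.592).

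The zinc finger factors Zic1 and Zic2 did not pass between the nuclei, at -0.35 ± 0.23 (adjusted p = 0.589) for Zic1 and -0.17 ± 0.11 (adjusted p = 0.602) for Zic2. Zic1 ranged over 168 to 975 in the bed nucleus (median 343) and over 364 to 579 in the medial preoptic area (median 487.5), so that the preoptic values lay inside the bed nucleus range. By day length, the Zic1 difference was -1.13 ± 0.34 in short days (adjusted p = 0.18), where both bed nucleus arrays lay under all 3 preoptic arrays, and 0.43 ± 0.30 in long days (adjusted p = 0.65). When the long-day array 1 of the bed nucleus was left out, the short-day difference of Zic1 passed at the same size (adjusted p = 0.0372). It was -0.61 without the short-day bed nucleus array 4 (adjusted p = 0.674) and -1.64 without the short-day bed nucleus array 5 (adjusted p = 0.219). Zic2 had 11 to 15 in the bed nucleus and 13 to 18 in the medial preoptic area, all below the array median.

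**Figure D2:**
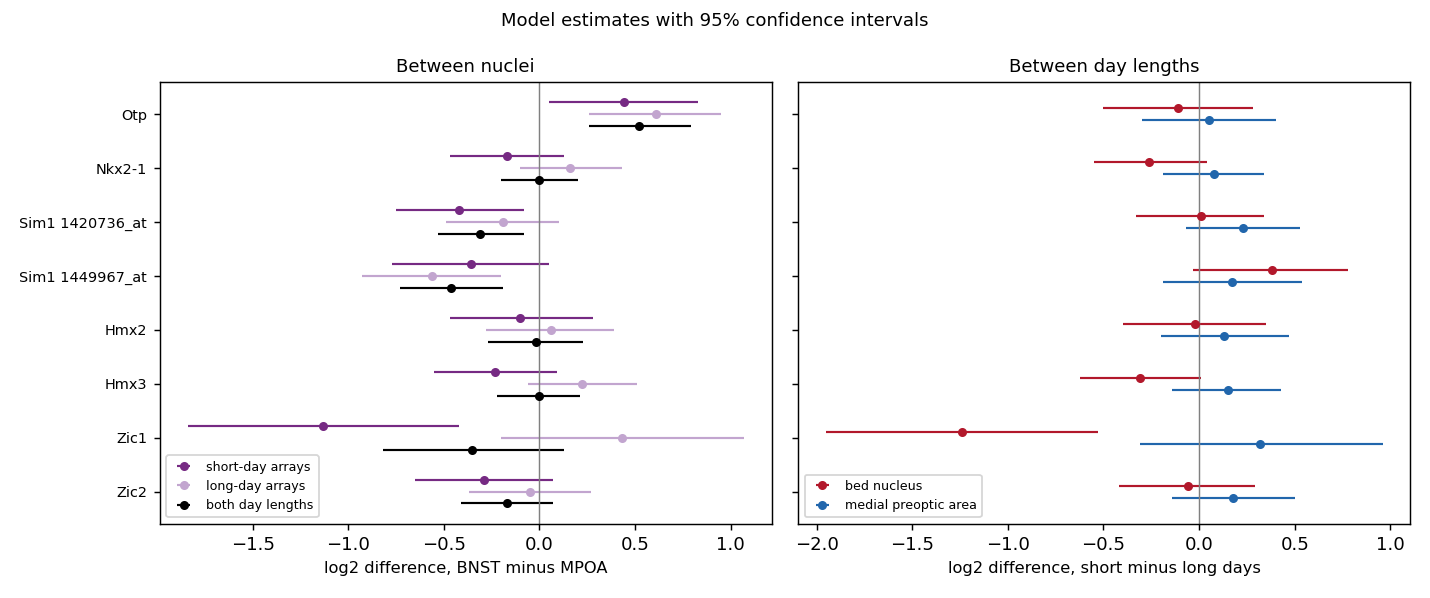
Log2 differences of the 8 probe sets from the limma model with 95% confidence intervals (horizontal axis), on the left bed nucleus minus medial preoptic area in short days, in long days and over both, on the right short minus long days in each nucleus. Otp at 0.52 is the only estimate over both day lengths that passed, and Zic1 has the widest intervals, with -1.24 for day length in the bed nucleus.

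The second comparison sets short against long days within each nucleus, which is the question of the series' design. None of the 8 probe sets passed in either nucleus, for the mean of both nuclei or for the difference between them. In the bed nucleus 10 of 22626 probe sets passed (0.0442%), in the medial preoptic area 0 (0%), for the mean 3 (0.0133%) and for the difference between the nuclei 0 (0%, all limma). An unadjusted p under 0.05 (limma) was found for 2866 probe sets in the bed nucleus (12.7%) and for 793 in the medial preoptic area (3.5%). The counts were 2040 for the mean of both nuclei (9.02%) and 1888 for the difference between the nuclei (8.34%).

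Zic1 was the member with the largest day length difference in the bed nucleus. It had 168 and 343 in the short-day bed nucleus, against 278, 975 and 669 in the long-day bed nucleus. The long-day arrays 2 and 3 were the highest of all 11 arrays and the short-day array 4 the lowest, but the long-day array 1, at 278, lay between the short-day arrays. The means were 256 ± 124 in short days (SD, n = 2) and 641 ± 349 in long days (SD, n = 3), a log2 difference of -1.24 ± 0.34 (0.424 times, 95% interval -1.95 to -0.53, adjusted p = 0.137). Its unadjusted p of 0.00162 ranked 266 of 22626 probe sets.

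This Zic1 value turned on single arrays. Without the long-day array 1 it was -1.75 and passed (adjusted p = 0.00712), while it was -1.75 without the short-day array 5 (adjusted p = 0.248) and -0.72 without the short-day array 4 (adjusted p = 0.518). In the medial preoptic area Zic1 had 579, 501 and 497 in short days, against 364, 424 and 478 in long days. There the short-day arrays were all higher, with a log2 difference of 0.32 ± 0.30 (adjusted p = 1). The day length differences of Zic1 in the bed nucleus and the preoptic area thus had opposite signs, and the test of their difference gave -1.56 ± 0.46 (unadjusted p = 0.00271, adjusted p = 0.45). With that long-day bed nucleus array 1 left out, this difference was -2.07 and passed (adjusted p = 0.03). It was -2.07 without the short-day bed nucleus array 5 (adjusted p = 0.638), -1.04 without the short-day array 4 (adjusted p = 0.574) and -1.17 without the long-day array 2 (adjusted p = 0.7).

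Some marker genes of other cell types were high on the same long-day bed nucleus arrays as Zic1. The thalamic marker Tcf7l2, a Wnt pathway transcription factor, had 42 and 36 in the short-day bed nucleus (1426639_a_at), against 48, 141 and 91 in the long-day bed nucleus. As for Zic1, the long-day arrays 2 and 3 stood above all others and the long-day array 1 lay near the short-day arrays. The other Tcf7l2 probe sets stayed at 9 to 23 on all arrays. The glutamate transporter gene Slc17a6 (1428379_at) had 29 and 18 in the short-day and 11, 136 and 63 in the long-day bed nucleus, against 88, 67 and 67 in the short-day and 48, 84 and 70 in the long-day preoptic area. Its array 3, at 63, lay under 5 of the 6 preoptic arrays, unlike that of Zic1 and Tcf7l2. The other Slc17a6 probe set stayed at 9 to 22 on all arrays. The protein kinase C gene Prkcd had 37 and 25 in the short-day and 38, 74 and 64 in the long-day bed nucleus, and 16 to 24 in the preoptic area.

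Over the 12 measured thalamic markers, the summed intensity was 802 and 640 on the short-day bed nucleus arrays and 792, 1512 and 1044 on the long-day bed nucleus arrays, with 729 to 847 and 695 to 862 on the short-day and long-day preoptic arrays. The brightest gene in this sum was Adarb1 (1434932_at). Without it the sums were 345 and 317 on the short-day and 316, 710 and 492 on the long-day bed nucleus arrays. On the preoptic arrays they were 331 to 405 without Adarb1. Of the 12 genes, 10 were below 0 for short minus long days in the bed nucleus (median -0.19), with 0 passing, while 55.2% of all genes were below 0 (median -0.028). The thalamic markers Lef1 and Gbx2 stayed between 9 and 14 on all arrays, under the array median. Calb2 had 40 and 51 in the short-day and 27, 42 and 46 in the long-day bed nucleus. Synpo2 had 19 and 24 in the short-day and 19, 19 and 16 in the long-day bed nucleus, so that both differed from the Zic1 pattern. Choroid plexus and ependymal markers, 9 measured, summed to 429 and 408 on the short-day and 1132, 849 and 1205 on the long-day bed nucleus arrays; 8 of 9 were below 0 and 2 passed (median -0.46). The larger part of this difference was the surface glycoprotein gene Cd24a (1437502_x_at), with 201 and 184 on the short-day and 813, 474 and 857 on the long-day arrays. Without Cd24a the sums were 228 and 224 on the short-day and 319, 375 and 348 on the long-day arrays.

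Of 14 neuronal markers, 11 were below 0 in the bed nucleus (median -0.23, 0 passing), with sums of 3452 to 3696 on short-day and 3726 to 4548 on long-day arrays. Meningeal markers summed to 569 to 831 on the short-day and 862 to 1303 on the long-day arrays, and to 380 to 382 and 379 to 414 on these arrays without the prostaglandin synthase gene Ptgds, with 9 of 19 below 0 (median 0.03, 0 passing). Septal markers summed to 317 to 337 on the short-day and 298 to 352 on the long-day arrays, with 5 of 9 below 0 (median -0.06, 0 passing). The part of these cell types in the Zic1 difference was not tested.

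**Figure D3:**
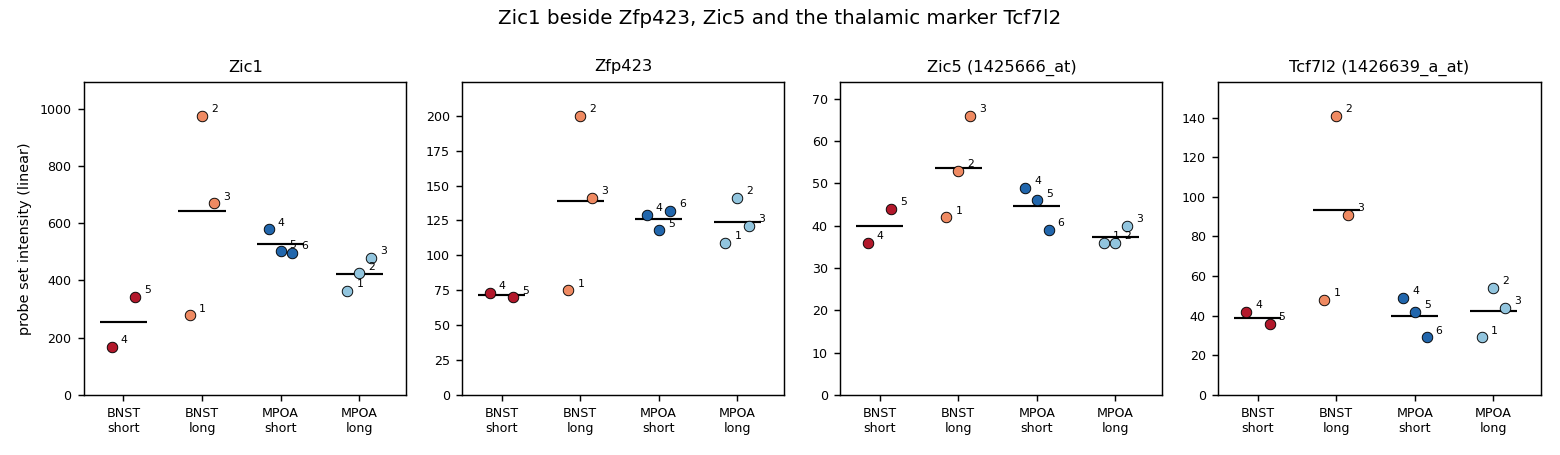
Probe set intensity (linear scale, vertical axes from 0) of Zic1, Zfp423, Zic5 and Tcf7l2 on every array, with sample numbers and group means as short bars. The long-day bed nucleus arrays 2 and 3 are the top arrays for the 4 probe sets shown, with a preoptic array level with array 3 at 141 for Zfp423. The long-day array 1 lies near the short-day bed nucleus arrays. The other probe sets of Zic5 and Tcf7l2 are not shown.

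The other members had smaller day length differences than Zic1, and none passed. Nkx2-1 was lower on both short-day bed nucleus arrays, at 66 and 64, than on the long-day arrays, at 77, 75 and 81, with a log2 difference of -0.26 ± 0.14 (95% interval -0.55 to 0.04, adjusted p = 0.467). Hmx3 was 11 on both short-day bed nucleus arrays, against 12, 14 and 15 in long days (-0.31 ± 0.15, adjusted p = 0.41). Sim1 (1449967_at) was 15 and 21 in short days, against 13, 14 and 14 in long days (0.38 ± 0.20, adjusted p = 0.433). With 2 arrays against 3, 23.7% of all probe sets had groups free of overlap in the bed nucleus, so that 3 of 8 here is no result about these genes. In the medial preoptic area, Zic1 was the only 1 of 8 with groups free of overlap, which held for 5.19% of all probe sets.

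For Otp the short minus long day difference was -0.11 ± 0.19 in the bed nucleus (95% interval -0.50 to 0.28) and 0.05 ± 0.17 in the medial preoptic area (95% interval -0.30 to 0.40). Hmx2 was at -0.02 ± 0.18 and 0.13 ± 0.16, and Zic2 at -0.06 ± 0.17 and 0.18 ± 0.15, in the bed nucleus and the medial preoptic area. In the medial preoptic area all 8 differences were above 0 (median 0.16, against 49.9% above 0 and a median of 0 over all probe sets). Without the short-day preoptic array 6, the array apart on the first component, 6 were above 0 and 2 below, as Hmx2 (-0.07) and Sim1 1449967_at (-0.05) changed sign; without the short-day array 4 or the long-day array 1, 7 were above 0. In the bed nucleus 2 of 8 were above 0 (median -0.09, against 47.2% and -0.015 over all probe sets).

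The difference of the day length effect between the nuclei was below 0 for 7 of 8 probe sets (median -0.23), where 47.3% of all probe sets were above 0. After Zic1, the largest was Hmx3, at -0.45 ± 0.20 (unadjusted p = 0.0386, adjusted p = 0.584), followed by Nkx2-1 at -0.33 ± 0.19 (adjusted p = 0.681). Averaged over both nuclei, short minus long days gave 4 of 8 above 0. Sim1 1449967_at had the lowest p of this average among the members, at 0.28 ± 0.13 (unadjusted p = 0.0483, adjusted p = 0.548).

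In order of the group means, Otp was highest in the long-day bed nucleus (33.0 ± 7.55, SD, n = 3), then the short-day bed nucleus (30.0 ± 2.83, n = 2), the short-day preoptic area (22.3 ± 4.51, n = 3) and the long-day preoptic area (21.3 ± 1.53, n = 3). Only the step between the nuclei, 7.67, was larger than the larger SD of the 2 neighbours. Zic1 ran in the order long-day bed nucleus, short-day preoptic area (526 ± 46.2, n = 3), long-day preoptic area (422 ± 57.0, n = 3) and short-day bed nucleus. The top step of 115 was under the SD of 349, while the steps of 104 and 166 below it exceeded the larger SD. No neighbouring groups differed beyond their spread for Nkx2-1, Hmx2 or Zic2.

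Among related members, 5 pairs of probe sets were correlated on the log2 scale over the 11 arrays, which share the group differences above. Zic1 and Zic2 gave a Pearson r of 0.65 (permutation p = 0.0332, adjusted over the 5 pairs 0.0415) and a Spearman rho of 0.76 (permutation p = 0.00884). Without the 2 arrays farthest from the median of Zic1 r was 0.7, and within the medial preoptic area it was 0.59 (n = 6, exact permutation p = 0.206). Over the 5 bed nucleus arrays this r was 0.81, given with no test. After the group means were removed it was 0.73 over the 11 arrays. Zic2 spanned only 11 to 18 over these arrays, and the correlation within the medial preoptic area alone was not past the threshold.

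The Sim1 probe sets gave an r of 0.66 with each other (permutation p = 0.0239, adjusted 0.0399; rho 0.61, permutation p = 0.0521). Without 2 arrays r was 0.73, and within the medial preoptic area it was 0.5 (n = 6, exact permutation p = 0.4). Over the 5 bed nucleus arrays this r was 0.25, given with no test. After the group means were removed it was 0.32 over the 11 arrays. Otp and Sim1 1449967_at ran in opposite directions, with an r of -0.8 (permutation p = 0.0025, adjusted 0.0125) and a rho of -0.82 (permutation p = 0.0032). This held without 2 arrays (-0.71), and within the medial preoptic area r was -0.8 (n = 6, exact permutation p = 0.0556). Over the 5 bed nucleus arrays it was -0.37, given with no test, and -0.63 over the 11 arrays after the group means were removed. The permutations over 11 arrays moved arrays across the groups, so their p-values also carry the differences between the nuclei. For Otp and Sim1 1420736_at the r of -0.73 (permutation p = 0.0128, adjusted 0.0321; rho -0.69, permutation p = 0.0213) was -0.37 without 2 arrays and 0.04 within the medial preoptic area (n = 6, exact permutation p = 0.911). Over the 5 bed nucleus arrays this r was -0.76, given with no test, and over the 11 arrays it was -0.56 after the group means were removed. Hmx2 and Hmx3 gave 0.54 (permutation p = 0.112; rho 0.32, permutation p = 0.339) and -0.42 without 2 arrays. Their r was 0.82 within the medial preoptic area (n = 6, exact permutation p = 0.122). It was 0.17 over the 5 bed nucleus arrays, given with no test, and 0.62 over the 11 arrays after the group means were removed.

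Of 39 measured genes in the 4 lists built around the members, 4 passed between the nuclei, all lower in the bed nucleus, where 157 of all 12393 genes passed (1.27%). Of 14 measured Nkx2-1 partners and lineage genes, 6 were above 0 and 8 below, and 2 passed as lower. Lhx8, a LIM factor of cholinergic neurons, had 13 and 12 in the short-day and 14, 14 and 13 in the long-day bed nucleus, against 19, 29 and 20 in the short-day and 17, 19 and 31 in the long-day preoptic area. All bed nucleus arrays were lower than all preoptic arrays, under the array median of 19, with a log2 difference of -0.75 ± 0.14 (adjusted p = 0.0105), a call lost without the short-day bed nucleus array 5 (adjusted p = 0.0856). Lhx6, a LIM factor of interneurons from the medial ganglionic eminence, had 35 and 40 in the short-day and 45, 34 and 39 in the long-day bed nucleus, against 45, 54 and 63 in the short-day and 58, 48 and 50 in the long-day preoptic area. The nuclei met at a single value of 45, and Lhx6 fell by 0.46 on the log2 scale (1425094_a_at, SE 0.11, adjusted p = 0.0485), while its other probe set stayed at 12 to 18. This Lhx6 call held without the short-day preoptic array 4 and was lost without any 1 of the other 10 arrays (adjusted p up to 0.208). These differences stand beside the Nkx2-1 difference of 0.00 ± 0.10. Whether the ratios differ between the nuclei was not tested.

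Of 8 measured genes of the Otp and Sim1 lineage, 2 were above 0 and 6 below, and none passed (limma). The nearest was the somatostatin gene Sst, with a log2 difference of 0.53 ± 0.18 (adjusted p = 0.19). Its intensities were 700 and 397 in the short-day and 552, 625 and 714 in the long-day bed nucleus, against 261, 520 and 278 in the short-day and 484, 603 and 358 in the long-day preoptic area, with wide overlap. The oxytocin gene Oxt was at -0.19 ± 0.10 (adjusted p = 0.479), the vasopressin gene Avp at -0.09 ± 0.11 (adjusted p = 0.811) and the thyrotropin-releasing hormone gene Trh at -0.21 ± 0.10 (adjusted p = 0.382). Trh, at 13 to 20, hardly exceeded the array median.

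Of 6 measured Hmx relatives and products, 2 were above 0 and 4 below, and the galanin gene Gal passed as lower. Gal had 54 and 80 in the short-day and 67, 65 and 70 in the long-day bed nucleus, against 112, 110 and 122 in the short-day and 93, 99 and 95 in the long-day preoptic area. The nuclei did not overlap, and the log2 difference was -0.65 ± 0.10 (adjusted p = 0.00205), which passed without any 1 of the 11 arrays (adjusted p up to 0.0274). Ghrh, the product of neurons that need HMX2 and HMX3 in the house mouse, lay at 15 to 24 with a difference of -0.05 ± 0.12 (adjusted p = 0.922). The neuropeptide Y gene Npy missed the threshold at 0.95 ± 0.25 (adjusted p = 0.0813).

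Of 11 measured genes of the Zic family and the Hedgehog pathway, 7 were above 0 and 4 below between the nuclei, and Ptch1, which encodes the Hedgehog receptor, passed as lower. Ptch1 (1428853_at) had 100 and 89 in the short-day and 80, 88 and 82 in the long-day bed nucleus, against 116, 112 and 134 in the short-day and 123, 119 and 119 in the long-day preoptic area. All bed nucleus arrays were lower than all preoptic arrays, and Ptch1 fell by 0.44 on the log2 scale (SE 0.09, adjusted p = 0.0224), with 17 to 26 on its other probe set. The Ptch1 call was lost without the long-day preoptic array 2, the long-day bed nucleus array 1 or the short-day bed nucleus array 5 (adjusted p up to 0.132). The family member Zic5 (1425666_at) had 36 and 44 in the short-day and 42, 53 and 66 in the long-day bed nucleus, a difference of -0.41 ± 0.17 for day length (adjusted p = 0.33). On this probe set Zic5 was thus highest on the long-day arrays 2 and 3, as Zic1 was. The other Zic5 probe set (1456140_at) stayed at 10 to 16 and the Zic4 probe sets at 11 to 19 on all arrays. For short minus long days in the bed nucleus 8 of the 11 genes were below 0 (median -0.15, 0 passing), against 55.2% of all genes.

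**Figure D4:**
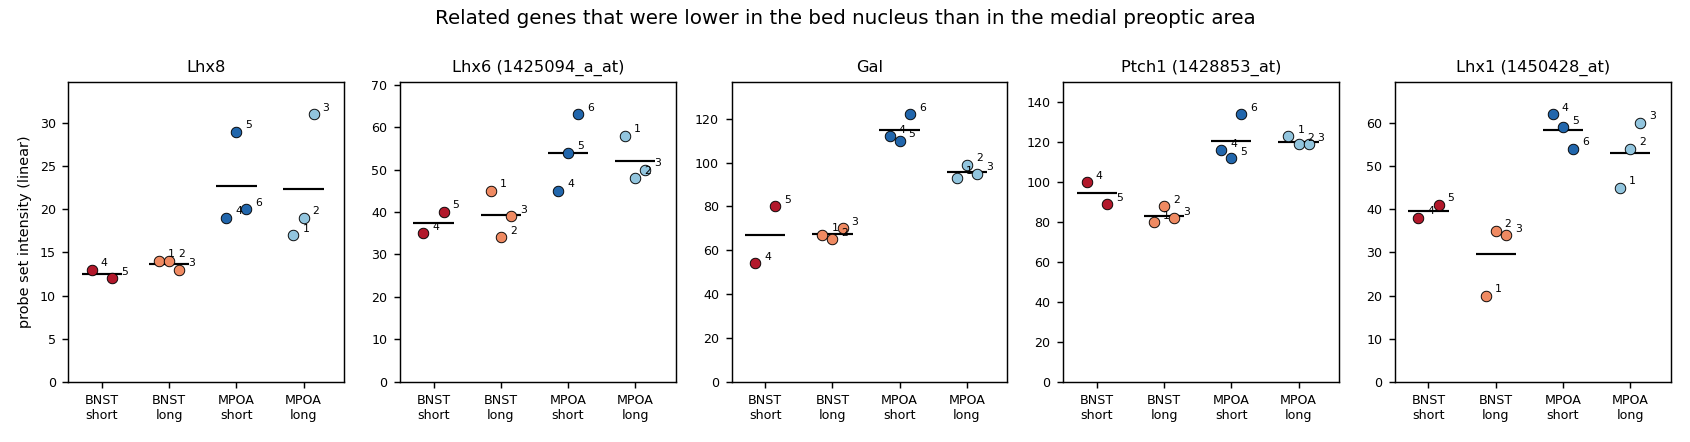
Probe set intensity (linear scale, vertical axes from 0) of Lhx8, Lhx6, Gal, Ptch1 and Lhx1 on every array, with sample numbers and group means as short bars. The bed nucleus arrays lie below the preoptic arrays for all 5 genes, with a tie at 45 for Lhx6.

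Among other hypothalamic patterning factors, 26 measured, 17 were above 0 and 9 below. Lhx1, a LIM factor of the suprachiasmatic nucleus and the anterior hypothalamus, was lower in the bed nucleus, with 38 and 41 in short and 20, 35 and 34 in long days, against 62, 59 and 54 in short and 45, 54 and 60 in long days in the preoptic area (1450428_at, -0.72 ± 0.13, adjusted p = 0.00812). Its other probe set stayed at 17 to 23, and the call was lost without either short-day bed nucleus array (adjusted p up to 0.0612). Of 5 Pax6 probe sets, 1437816_at passed as higher (0.65, adjusted p = 0.0224), with 35 and 35 in the short-day and 49, 53 and 44 in the long-day bed nucleus and 16 to 32 in the preoptic area. Of 17 telencephalic patterning factors, 12 were above 0, and Lhx2 (1.22, adjusted p = 1.2e-05) and Meis2 (0.84, adjusted p = 0.0256) passed as higher in the bed nucleus. Leaving out 1 array at a time, Lhx2 passed in 11 of 11 fits, Pax6 in 5 (adjusted p up to 0.111) and Meis2 in 4 (adjusted p up to 0.121). For day length, Lhx2 was the only gene of these 6 groups that passed in the bed nucleus (-1.27, adjusted p = 0.00415), a call lost without either short-day array (adjusted p up to 0.0966).

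By Pearson correlation of log2 values over the 11 arrays, given as a description among 10253 named probe sets above the array median, the patterns most like that of Otp were those of Zdhhc14 (r = 0.949), Ppp3cb (0.934) and Ppp2r5c (0.918). The Ppp3cb probe set 1427468_at was at 0.26 between the nuclei, whereas its probe set 1433835_at was at -1.17 and had an r of -0.644 with Otp. For Nkx2-1 they were Atxn2 (0.913), Spsb2 (0.887) and Gpx4 (0.885), and for Hmx2 they were Hipk1 (0.928), Galnt16 (0.913) and Pspc1 (0.907). For Zic1 they were Vapa (0.905), the zinc finger gene Zfp423 (0.886) and the calcium sensor gene Vsnl1 (0.884). Other probe sets of these genes, where present, had lower r with the same member. With Otp it was 0.152 to 0.609 for Zdhhc14 and -0.626 to 0.697 for Ppp2r5c. With Nkx2-1 it was 0.143 to 0.536 for Atxn2, -0.13 for Spsb2 and 0.423 for Gpx4. With Hmx2 it was -0.239 and 0.379 for Hipk1 and -0.176 for Pspc1. With Zic1 it was 0.503 and 0.544 for Vapa and 0.616 for Vsnl1. Zfp423 had 73 and 70 in the short-day and 75, 200 and 141 in the long-day bed nucleus, and 109 to 141 on the preoptic arrays. The long-day bed nucleus arrays 2 and 3 were again on top, level with a preoptic array at 141, and array 1 lay near the short-day arrays, with a day length difference of -0.84 (adjusted p = 0.166). Sim1, Hmx3 and Zic2 had means under the array median and were given no such genes.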

How the data were processed

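The deposited intensities, linear and 1 per probe set, were made with RMA 3.4 per the submitters' processing notes; further steps are not stated there. They are whole numbers with a median of 19 on every array, and 51.1% are 19 or less. Of 22690 probe sets, 64 controls were set aside. Names came from the platform annotation, for the 20380 probe sets with 1 symbol (12393 genes). Log2 values with no pseudocount entered a model of 4 group means over 11 arrays (lmFit and eBayes, limma 3.58.1, R 4.3.3; 7 residual and 12.9 prior degrees of freedom) with 7 two-sided comparisons. Benjamini-Hochberg adjustment ran over 22626 probe sets, with a threshold of 0.05, and intervals are 95%. The procedure was tested on simulated data. A gene of a list counts by its probe set of highest mean. The members and the 16 gene lists were chosen with earlier results of these data known. Text names come from a rule: all member probe sets, list members that passed, up to 4 others with the smallest p of a list, and the 3 probe sets most like a member that is above the array median; other genes named beside them (Avp, Ghrh, Zic4 and single cell type markers) were chosen after their values were seen. Alternatives were quantile normalization, median centring, array weights, leaving out dim probe sets, a prior that was trended and robust, undoing the rounding with uniform noise, 1 probe set per gene, only the groups compared, each array left out, and a replicate block. The arrays' number limits the precision.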

Additional observations from a re-analysis of the deposited data

How the results depend on the processing

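Of 1061 single values of the 8 probe sets under these alternatives, 996 kept their sign and their side of the threshold, 13 were no longer past it, 3 newly passed, 49 that passed neither time changed sign, and 0 that had passed changed sign. The 13 are all of Otp between the nuclei, where the count of members that passed, 1, was 0 with quantile normalization (adjusted p = 0.0523), array weights (0.0576), the rounding undone (0.052) and the replicate block (0.0983, log2 difference 0.45), and 0 to 1 with each array left out. The Otp difference was 0.45 to 0.62 throughout, and its call held with median centring, without dim probe sets, with the trended and robust prior and with 1 probe set per gene (adjusted p = 0.0398 to 0.0487). The count of members that passed was 0 to 1 with each array left out for day length in the bed nucleus, for the difference of the day length effect between the nuclei and for the nuclei in short days, each time through Zic1 with array 1 of the long-day bed nucleus left out. The cause was not tested. The replicate block pairs equal sample numbers across the nuclei. For the nuclei and for the difference of the day length effect it leaves out the preoptic array 6, which has no partner. For day length within each nucleus or averaged over both, it models a correlation of same-numbered arrays over all 11 arrays. Whether equal sample numbers mark the same mouse is not stated. The deviations of same-numbered arrays from their group means correlated at -0.03 to 0.07. Such values, from groups of 2 or 3 arrays, cannot decide this, and the block is given as an alternative. With 2 or 3 arrays a group, small differences cannot be resolved. In addition, 4 of 8 probe sets had means under 19.2, the median of all probe set means, where a step of 1 unit is coarse. Otp, at 18 to 27 on the preoptic arrays, was close to this level too.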
